A study of Drosophila melanogaster with 2 samples.

Results

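This report describes gfzf peaks at the start regions of 10 genes that encode promoter-binding and insulator proteins, out of 13968 protein-coding genes of Drosophila melanogaster that could carry a promoter peak. The 10 genes, M1BP, Dref, Trl, pzg, Chro, BEAF-32, CTCF, su(Hw), Cp190 and mod(mdg4), were chosen by name, with earlier results of these data known. Chromatin immunoprecipitation with sequencing (ChIP-seq) mapped gfzf, a nuclear protein with FLYWCH zinc fingers, as a GFP fusion in whole embryos. The single group consisted of 2 biological replicates of embryos of both sexes, aged 0 to 24 h, from a transgenic line that stably carries gfzf with GFP at its C-terminus. Per the sample description the immunoprecipitation used an antibody to GFP, whereas the antibody field of both samples reads gfzf, so the labels leave unclear whether GFP or gfzf itself was bound by the antibody. It was done on chromatin sonicated to fragments of 200 to 800 bp. The labels do not say which promoter drives the fusion, whether the native gfzf copies were intact, or whether the replicates were separate embryo collections. There was no second condition, so nothing was tested between groups, and every value below is a description.

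The 10 proteins work at gene starts and at chromatin boundaries. At the promoters of housekeeping genes in flies, M1BP binds Motif 1, DREF (from Dref) binds the DNA replication-related element (DRE), and their partners include Putzig (pzg) and Chromator (Chro). The GAGA factor (Trl) binds GAGAG repeats and keeps promoters open, mostly at regulated genes. Insulator complexes form on DNA through BEAF-32, CTCF or Su(Hw), which recruit the shared cofactors CP190 and Mod(mdg4), and they separate neighbouring chromatin domains.

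A gene was called bound when a peak summit of the authors' optimal set lay within 250 bp of any of its annotated transcription start sites (TSSs). The optimal set holds the 5007 peaks that the authors kept after a filter on agreement between replicates, the irreproducible discovery rate (IDR). These were exactly the 5007 strongest peaks of the pooled replicates. A peak in the set was therefore not always among the first 5007 of each replicate. The sequences below show what lies at the starts of the genes the results turn on, each read 5′ to 3′ on the gene's own strand from the dm6 assembly of RefSeq. Positions count the TSS base as 1 and the base before it as −1. The first set holds the promoters with a DRE, whose letters are in capitals. In Dref (chr2L:9967230-9967289, minus strand, −60 to −1) the DRE is the variant TATCGATT. In CTCF (chr3L:7356714-7356773, minus strand, −60 to −1) and mod(mdg4) (chr3R:21377402-21377481, minus strand, −80 to −1) it is the full palindrome TATCGATA. In Cp190 (chr3R:15275227-15275256, minus strand, −15 to 15) the full palindrome spans the start site itself.
Dref: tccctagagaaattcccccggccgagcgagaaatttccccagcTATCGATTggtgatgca
CTCF: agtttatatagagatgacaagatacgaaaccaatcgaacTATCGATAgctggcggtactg
mod(mdg4): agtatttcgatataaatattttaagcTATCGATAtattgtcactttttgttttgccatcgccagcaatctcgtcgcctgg
Cp190: tatcgcatggcTATCGATAgctgccgagcg

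The second set holds starts with another element or with none. At su(Hw) (chr3R:14308566-14308595, minus strand, −6 to 24) the capitals mark the core of Motif 1, just inside the transcript. At Trl the stretch before the 3′-most of its starts is shown (chr3L:14757337-14757416, minus strand, −80 to −1), with GAGAG repeats in capitals. At pzg (chr3L:21285999-21286098, plus strand, −100 to −1) and M1BP (chr3R:8731699-8731798, minus strand, −100 to −1) no DRE, Motif 1 core, Motif 6 or Motif 7 was found, and the single capital is the summit base of the pooled replicates.
su(Hw): ctacatgcaacGGTCACACtgaattttcat
Trl: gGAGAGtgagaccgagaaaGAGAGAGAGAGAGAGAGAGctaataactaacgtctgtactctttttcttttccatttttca
pzg: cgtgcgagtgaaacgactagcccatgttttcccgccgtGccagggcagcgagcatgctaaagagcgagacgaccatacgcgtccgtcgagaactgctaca
M1BP: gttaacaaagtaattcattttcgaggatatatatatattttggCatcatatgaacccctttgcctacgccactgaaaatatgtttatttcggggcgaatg

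Of the 10 genes, 8 were bound in the optimal set, against 33.0% of all protein-coding genes (4609 of 13968). Because the genes were chosen with earlier results of these data known, the contrast with all genes is a description only. The bound genes were Dref, pzg, Chro, BEAF-32, CTCF, su(Hw), Cp190 and mod(mdg4). M1BP and Trl were not bound, although both had weaker summits in the relaxed lists, which hold 30000 peaks each for the pooled replicates and for each replicate. Counting those, all 10 genes had a summit within 250 bp of a start in the pooled list, where 51.6% of all genes did. The same held in replicate 1 (51.5% of all genes) and in replicate 2 (50.1%). At 500 bp the pooled list had all 10 (59.5% of all genes), and at 100 bp it had 9, without Trl (40.4%). M1BP and Trl were thus among the 18.6% of genes with a relaxed pooled summit but none in the optimal set. With the 5007 strongest peaks of 1 replicate alone, the same 8 genes were bound in replicate 1 (32.7% of all genes) and in replicate 2 (32.2%). In whole embryos that mix tissues and stages, a weak peak in many cells and a strong peak in few cells cannot be told apart.

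The peaks at these genes were mostly of low to middle strength. Peak signal is the value of the authors' peak caller, on a scale that is not stated, so it is compared only within a list, and rank 1 is the strongest peak. The median of the strongest promoter signal was 335 over the 8 bound genes and 724 over all bound genes (quartiles 194 and 2057). Signals at pzg (1100.0) and su(Hw) (965.2) were above the median over all bound genes, and the other 6 were below it. Among the 2503 strongest peaks of the optimal set, 4 of the 10 genes had a summit within 250 bp, namely pzg, su(Hw), mod(mdg4) and Chro, and 20.2% of all genes did.

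**Figure D1:**
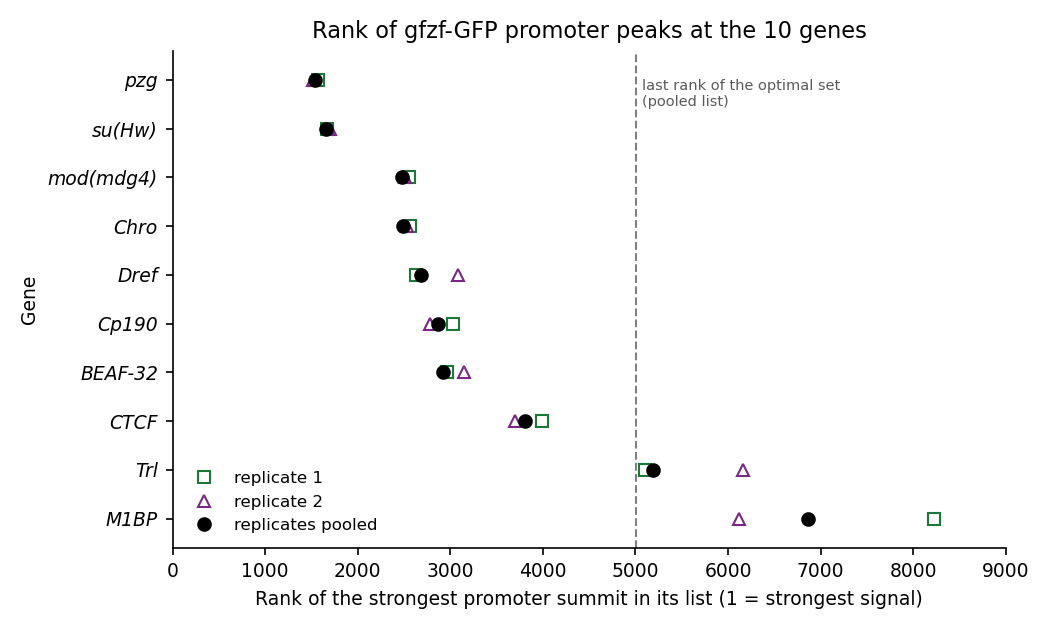
Rank of the strongest summit within 250 bp of a start of each gene (horizontal axis, 1 is the strongest signal of its list) in replicate 1, replicate 2 and the pooled replicates. The dashed line is the last rank of the optimal set in the pooled list (5007), and Trl and M1BP are the genes whose ranks lie past it, in the pool (5187 and 6867) and in both replicates.

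Among the factors that bind core promoter elements, Dref was bound and M1BP and Trl were not. Dref, a minus-strand gene with 1 annotated start for both of its transcripts (2L, TSS 9967229), had a pooled signal of 304.1 at rank 2679. In replicate 1 the signal was 210.6 at rank 2626, and in replicate 2 it was 92.1 at rank 3082. Dref thus ranked lower in replicate 2, which was the widest rank difference among the 8 bound genes, while the summits of both replicates lay 1 bp apart. The pooled summit lay at 9967187, 42 bp downstream of the start in the 5′ UTR, in a peak from 9966941 to 9967377. The variant DRE printed above lay from −17 to −10, 52 bases from the summit. A weaker summit 157 bp upstream, found only in the relaxed lists, had a pooled signal of 49.4 at rank 7066.

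The start region of Dref is shared with RpL13, a ribosomal protein gene of the large subunit, which is transcribed the other way from a start 84 bp from that of Dref. The RpL13 start lay 126 bp from the same summit, so both genes counted as bound by 1 peak. Beyond the 3′ end of Dref, a stronger peak lay 31 bp from the start of CG5850, with a signal of 536.1 at rank 2142, and its interval held another summit with 200.5 at rank 3247. The Dref promoter peak was therefore not the strongest peak near the gene.

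M1BP, the gene of the Motif 1 factor, was outside the optimal set (3R, minus strand, TSS 8731698, 1 transcript). Its pooled relaxed summit had a signal of 51.5 at rank 6867, 1.72-fold below the weakest signal of the optimal set (88.4). The signal was 27.2 at rank 8228 in replicate 1 and 25.7 at rank 6116 in replicate 2. Both replicates thus placed a weak summit at M1BP, outside the first 5007 ranks of each list. The summits lay 57 bp upstream of the start in the pool, 31 bp downstream in replicate 1 and on the start base in replicate 2. The authors' −log10 q-value of the pooled M1BP summit was 4.18, the same as that of every line given here from the optimal set, so it did not separate M1BP from the bound genes.

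The M1BP promoter is unusually rich in A and T. The window from 250 bases before to 50 bases after the start had a GC content of 25.6%, against a median of 37.9% over 13968 promoters, and stood at percentile 1.5 of them. This window held none of the Motif 1 core, the DRE, Motif 6 or Motif 7. The gene for the protein that binds Motif 1 thus carried no copy of its core in that window. The neighbour CG8202 starts 393 bp away in the other direction and was not bound either.

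Trl, which encodes the GAGA factor, has 4 annotated starts on the minus strand of 3L, and the optimal set had no summit within 250 bp of any of them. The strongest relaxed summit lay 111 bp downstream of the 3′-most start (TSS 14757336, transcript Trl-RJ). Its pooled signal of 83.8 at rank 5187 was only 1.06-fold below the weakest signal of the optimal set. In replicate 1 the signal was 58.2 at rank 5100, and in replicate 2 it was 25.4 at rank 6161. Trl therefore sat just outside the optimal set, nearer to its edge in replicate 1 than in replicate 2.

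The start that 7 of the 10 Trl transcripts use (TSS 14757962), which CG42507 shares to the base, had a relaxed summit 213 bp upstream with a pooled signal of 57.1 at rank 6465. The 5′-most start (TSS 14761049) had one 244 bp downstream with 25.7 at rank 12809. Replicate 2 listed neither of these within 250 bp, so they rested on replicate 1 and the pool. The start of Trl-RA (TSS 14757779) had no summit in any list.

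The optimal set did hold summits inside Trl introns. One at 14759502 had a pooled signal of 161.0 at rank 3594 and lay 1540 bp from the nearest Trl start, with rank 3696 in replicate 1 and 3960 in replicate 2. Another at 14760400 had 96.2 at rank 4785 and lay 649 bp from a Trl start, with ranks 4989 and 5252. Another peak, outside Trl and 943 bp upstream of its 5′-most start, had 191.2 at rank 3319 and lay 36 bp from the start of Mgat4a. At Trl, summits of the optimal set thus lay in introns and at the upstream neighbour rather than at its starts, and allowing 1000 bp between summit and start would call Trl bound, with 9 of the 10 genes and 39.3% of all genes.

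**Figure D2:**
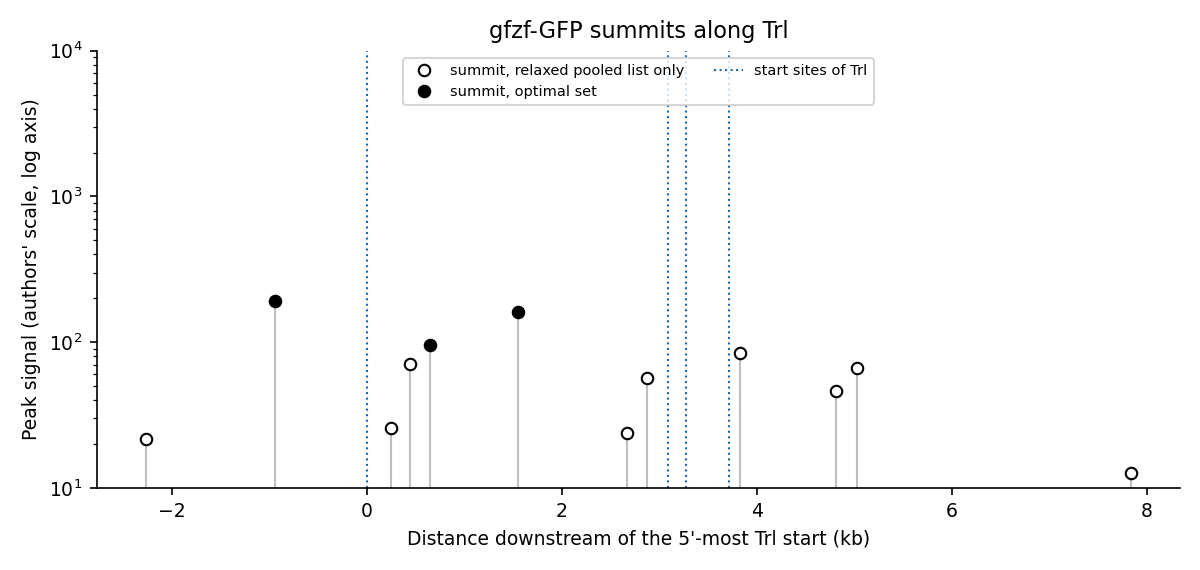
Peak signal (log axis, the authors' scale) of pooled summits along Trl by distance downstream of its 5′-most start in kb. Filled points are summits of the optimal set and open points are relaxed summits only. Dotted lines are the 4 annotated starts, and the filled points (signals 191.2, 96.2 and 161.0) stand away from all of them.

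The 3′-most Trl start, which had the strongest relaxed summit, also had the densest GAGAG repeat. Its window held 11 matches to GAGAG on either strand, overlapping ones included, and 0.501% of all promoters held as many. That share took the 5′-most start of each gene, and the window of the 5′-most Trl start held 0 matches. The window of the start shared by 7 transcripts held 1 match, and 29.8% of all promoters held at least that many, and no promoter window of the other 9 genes held any. Over all genes, GAGAG was in 22.2% of bound and 33.5% of unbound promoter windows.

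Both partners of DREF at promoters, pzg and Chro, were bound. At pzg (3L, plus strand, TSS 21286099), which encodes the zinc finger protein Putzig, the pooled signal was 1100.0 at rank 1541, the highest of the 10 genes. It was 665.8 at rank 1576 in replicate 1 and 427.6 at rank 1512 in replicate 2. The ranks in both replicates were thus close to the pooled rank. The summit at 21286037 lay 62 bp upstream of the start, and 58.7% of bound genes had a weaker promoter signal.

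The pzg peak was broad and covered a shared start region. It spanned 880 bp (21285550 to 21286429), wider than 82.2% of the intervals in the optimal set, whose median width was 524 bp. A second summit in the same interval lay 142 bp downstream of the start, with a pooled signal of 143.6 at rank 3856. Replicate 2 listed this second summit with 48.5 at rank 4267, and replicate 1 did not list it. CG12974 starts 137 bp from pzg in the other direction and 75 bp from the main summit, which therefore lay between both starts. The pzg promoter window held neither a DRE nor the Motif 1 core, and a single CGATA match 113 bases from the summit.

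Chro, which encodes the chromodomain protein Chromator, has 3 starts on the minus strand of 3L. Its summit of the optimal set lay nearest to the 5′-most of them (TSS 22878984, transcript Chro-RE). The signal was 365.1 at rank 2490 in the pool, 223.4 at rank 2562 in replicate 1 and 143.5 at rank 2536 in replicate 2. The ranks differed little between replicates. The summit at 22878906 lay 78 bp downstream of that start in the 5′ UTR, in a peak from 22878704 to 22879150. The start used by 3 of its 5 transcripts (TSS 22878768) lay 216 bp downstream of the 5′-most start. The same summit therefore also lay within 250 bp of this second start, on its upstream side, in the pool and in both replicates. The 3′-most start (TSS 22878184) had a relaxed summit with a pooled signal of 29.1 at rank 11045.

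Ssl1, which encodes a subunit of the general transcription factor TFIIH, starts 105 bp upstream of Chro in the other direction and 183 bp from the summit, and it was bound as well. Past the 3′ end of Chro, a peak with a signal of 100.1 at rank 4680 lay 6 bp from the start of CG11109. The window of the Chro start nearest to the summit held none of the Motif 1 core, DRE, Motif 6, Motif 7 or CGATA. The summit itself, 78 bp downstream of that start, lay past the end of this window. A CGATA match from 22878892 to 22878896, in the window of the second Chro start, lay close to the summit at 22878906. That second window held no Motif 1 core, DRE, Motif 6 or Motif 7 either. Chro and pzg, the partners of DREF in this set, thus had a peak without a DRE in the promoter window.

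Among the insulator proteins that bind DNA themselves, su(Hw) had the strongest peak and CTCF the weakest. At su(Hw) (3R, minus strand, TSS 14308589, 3 transcripts), the zinc finger protein first known from the gypsy insulator, the pooled signal was 965.2 at rank 1657. Replicate 1 gave 603.7 at rank 1671 and replicate 2 gave 353.4 at rank 1704, so the ranks were almost the same in both. The summit at 14308641 lay 52 bp upstream of the start.

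The interval at su(Hw) was among the widest of the optimal set and held a second gene start. It spanned 1425 bp (14307982 to 14309406), and 98.9% of intervals were narrower. A second summit in it at 14309036 had a pooled signal of 746.4 at rank 1913, with 516.3 at rank 1830 in replicate 1 and 210.9 at rank 2154 in replicate 2. That summit lay 53 bp from the start of Polr2I, an RNA polymerase II subunit gene transcribed the other way from a start 500 bp from that of su(Hw). The first summit stood at su(Hw) and the second at its neighbour, 447 bp from the su(Hw) start and so outside the distance used here.

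The Motif 1 core at su(Hw) lay from base 6 to base 13 of the transcript, 57 bases from the summit. It was the only Motif 1 core in any promoter window of the 10 genes. Over all genes the core was in 22.0% of bound and 0.630% of unbound promoter windows. The window held no other motif of the 12 searched, among them the core that Su(Hw) itself binds, GCATACTT, which was in 1.25% of all promoters.

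At CTCF (3L, minus strand, TSS 7356713, 1 transcript), the fly counterpart of the vertebrate insulator protein, the pooled signal of 146.4 at rank 3809 was the lowest of the 8 bound genes. It was 88.8 at rank 3989 in replicate 1 and 62.9 at rank 3694 in replicate 2. Both replicates thus placed the gene inside their first 5007 ranks. The summit at 7356682 lay 31 bp downstream of the start, in a peak of only 156 bp (7356611 to 7356766). The full DRE printed above lay 45 bases from the summit at its near edge. The annotation places 2 Quasimodo transposable elements upstream, starting 169 and 466 bp from the CTCF start on the same strand, and how reads were shared among copies of such elements is not given in the sources used here.

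BEAF-32, which binds CGATA elements at domain boundaries and near housekeeping promoters, has 3 starts on the plus strand of 2R. Only the 3′-most (TSS 14771301, transcript BEAF-32-RB) had a summit of the optimal set within 250 bp, so with the 5′-most start of each gene alone BEAF-32 was not bound, leaving 7 of the 10 genes and 31.3% of all genes. The signal was 250.1 at rank 2919 in the pool, 160.2 at rank 2967 in replicate 1 and 87.7 at rank 3152 in replicate 2. Its summit at 14771277 lay 24 bp upstream of that start, within the 5′ UTR of other BEAF-32 transcripts. At the 5′-most start (TSS 14770469), replicate 1 alone listed a weak summit, with a signal of 14.8 at rank 15944.

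Other starts crowd the BEAF-32 locus. An antisense RNA, asRNA:CR42254, starts 6 bp from the BEAF-32-RB start and 18 bp from the summit, and ChIP carries no strand to separate them. A far stronger peak, with a signal of 5134.8 at rank 161, lay 989 bp from the 5′-most BEAF-32 start and 57 bp from the start of Spred, a Ras pathway inhibitor gene. The window of the start with the peak held 1 CGATA match, 54 bases from the summit, and no DRE. The 5′-most start, which had no summit of the optimal set, held a full DRE from −210 to −203.

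Both insulator cofactors were bound, each next to a full DRE. Cp190 (3R, minus strand) encodes a BTB domain protein that joins several insulator complexes. At its 5′ start (TSS 15275241, transcript Cp190-RA) the pooled signal was 259.1 at rank 2871. Replicate 1 gave 153.4 at rank 3028, and replicate 2 gave 113.5 at rank 2777. The summit at 15275224 lay 17 bp downstream of the start, 14 bases from the DRE that spans it, in a peak from 15275053 to 15275439. This was the bound gene with its summit closest to a start.

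The second Cp190 start (TSS 15274790, transcript Cp190-RB) also held a full DRE, from −21 to −14, but had no summit within 250 bp in any list. The same 8 letters near both starts of Cp190 thus went with a peak at one of them. The windows of the first and second start held 3 and 2 CGATA matches, overlaps with the DRE included, and 12.6% and 24.3% of all promoters held as many. A relaxed summit 185 bp upstream of the first start had a pooled signal of 76.5 at rank 5463. The neighbour CG4338 starts 281 bp away in the other direction and was not bound, and the strongest nearby peak (2599.4, rank 659) lay beyond the 3′ end of Cp190, 35 bp from the start of Zip88E.

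mod(mdg4) encodes a family of BTB domain proteins that share their N-terminal part and differ in their C-terminal exons, which are joined by trans-splicing. All of its 22 annotated transcripts have the same start (3R, minus strand, TSS 21377401). There the pooled signal was 371.6 at rank 2474, with 224.6 at rank 2557 in replicate 1 and 147.3 at rank 2511 in replicate 2. The summit at 21377432 lay 31 bp upstream of the start and 16 bases from the full DRE printed above, and the replicate summits were 3 bp apart. A second line of the optimal set had its summit 235 bp upstream, just inside the distance limit, with a pooled signal of 120.2 at rank 4260.

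The annotation also lists 23 precursor genes, named pre-mod(mdg4), from which the variable exons are transcribed on either strand. They have 7 distinct starts inside the mod(mdg4) gene, of which 4 had a summit of the optimal set within 250 bp and 6 had a relaxed pooled summit. As several precursors share a start, 13 of the 23 counted as bound through only 2 summits. The first of these, at 21365532, had a pooled signal of 245.5 at rank 2951, with 135.7 at rank 3204 in replicate 1 and 108.7 at rank 2839 in replicate 2. It lay 44 bp from the minus-strand start of pre-mod(mdg4)-E and 77 bp from the plus-strand start shared by 7 precursors, among them pre-mod(mdg4)-U and pre-mod(mdg4)-V. The precursors AB and C counted as bound only through a start at 21365290, 242 bp from that summit and so just inside the limit, and replicate 2 had no summit within 250 bp of it.

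The second precursor summit, at 21373550, had 141.1 at rank 3902 in the pool, 96.9 at rank 3795 in replicate 1 and 41.7 at rank 4597 in replicate 2. It lay 25 bp from the start of pre-mod(mdg4)-AA, -N and -O, 3.8 kb downstream of the common start. The start shared by 8 precursors, among them pre-mod(mdg4)-B and pre-mod(mdg4)-P, had only a relaxed summit, with a pooled signal of 35.9 at rank 8948. Replicate 1 gave 30.6 at rank 7528 there, and replicate 2 listed no summit within 250 bp. The mod(mdg4) locus thus carried a peak at its common start and others at internal starts, on both strands of the variable region. The strongest peak nearby, with a signal of 4750.2 at rank 192, lay past the 3′ end of the gene, 98 bp from the start of aus.

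**Figure D3:**
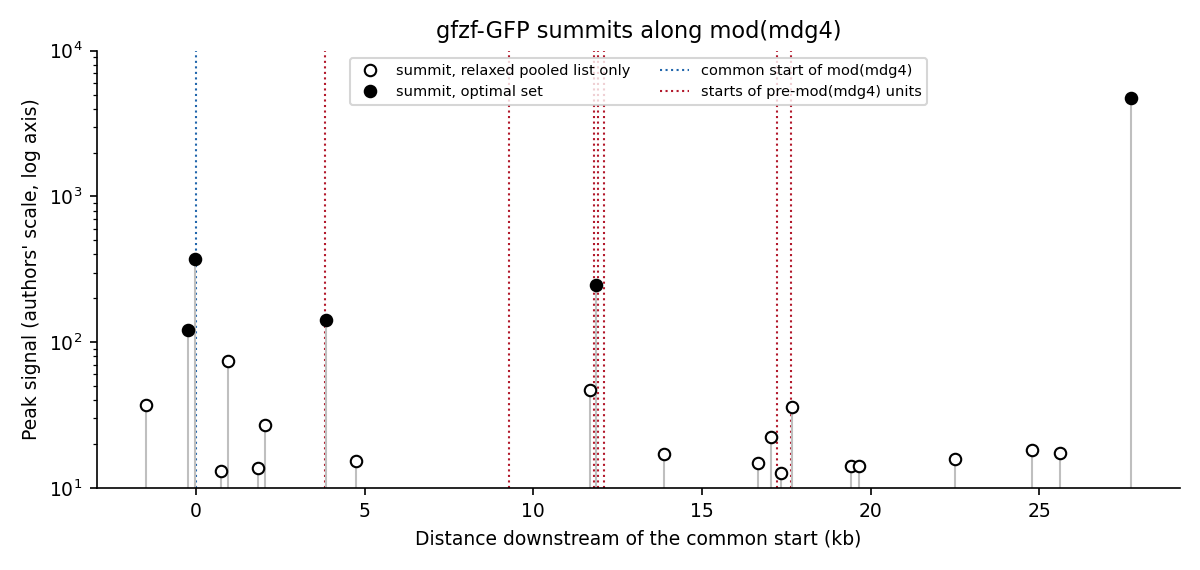
Peak signal (log axis, the authors' scale) of pooled summits along mod(mdg4) by distance downstream of its common start in kb. Filled points are summits of the optimal set and open points are relaxed summits only. The blue line is the common start (summit signal 371.6) and red lines are precursor starts (245.5 and 141.1 at the 2 internal summits), and the point at 4750.2 on the right is the peak at aus.

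Side by side, the summits of the bound genes sat on both sides of their starts. The strongest summit lay upstream at pzg, su(Hw), mod(mdg4) and BEAF-32 and downstream at Chro, Dref, CTCF and Cp190, so 4 of 8 lay downstream, against 10.7% of all bound genes. These sides hold for the pooled summit and the start nearest to it. In replicate 2 the Cp190 summit lay 14 bp upstream and the BEAF-32 summit 1 bp downstream. The Chro summit also lay upstream of the second Chro start. All 8 pooled summits lay within 100 bp of a start, where 26.6% of all genes had a summit. The same 8 genes were bound at 500 bp (36.9% of all genes) and where the peak interval had to cover a start (33.4%). Just inside the limit of 250 bp were the second mod(mdg4) summit at 235 bp and the relaxed Trl summits at 213 and 244 bp, and the nearest beyond it in the optimal set was the Polr2I summit, 447 bp from su(Hw). A coding gene started within 500 bp in the other direction at 5 of the 8, Dref, pzg, Chro, Cp190 and su(Hw), a share near the 51.1% of all bound genes.

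**Figure D4:**
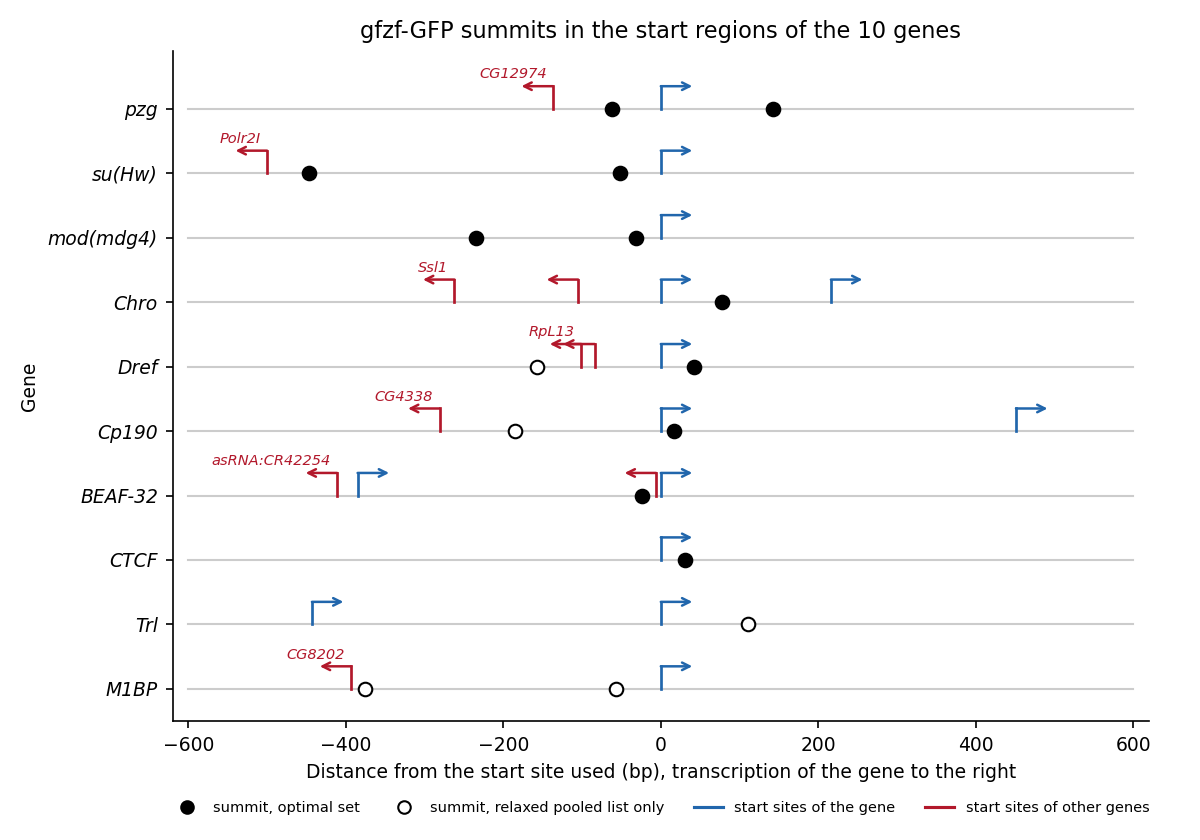
Pooled summits (filled for the optimal set, open for relaxed only) by distance in bp from the start used for each gene, with transcription of that gene to the right. Arrows are annotated starts of the gene (blue) and of other genes (red). Strongest summits range from 62 bp upstream at pzg to 78 bp downstream at Chro among bound genes, and CG12974, Polr2I, Ssl1, RpL13 and CG4338 start within 500 bp in the other direction.

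Promoter elements differed between these genes. Motif searches covered both strands of the windows from 250 bases before to 50 bases after each start, for 12 motifs. The DRE, searched as ATCGAT with A or T on each side, lay in the window of the start with the peak at Dref, CTCF, Cp190 and mod(mdg4), 4 of the 8 bound genes, against 29.3% of bound and 10.4% of unbound promoters of all genes. Its full form, TATCGATA, lay in 3 of these 4, against 18.1% and 5.06%. These shares over all genes took the 5′-most start of each gene and not the start with the peak. At BEAF-32, where these starts differ, the 5′-most start held a full DRE that is not counted here. CGATA, the element of BEAF-32, lies inside the full DRE and is a shorter and commoner sequence, found in 47.4% of all promoters.

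None of the windows of the 10 genes held Motif 6, Motif 7, the CTCF core AGNNGGCGC or the Su(Hw) core. Over all promoters these were in 2.23%, 9.28%, 2.82% and 1.25%. Close to the summit, the picture was thinner than in the whole window. One of the Motif 1 core, the DRE, Motif 6 or Motif 7 lay wholly within 50 bp of the strongest summit at 2 of the 8 bound genes, Cp190 and mod(mdg4), where 32.8% of all optimal summits had one. Within 100 bp it was 5 of 8, adding Dref, CTCF and su(Hw), where 46.2% did. At pzg, Chro and BEAF-32 no such element lay that close.

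Both replicates placed each of the 10 genes' strongest summits within 32 bp of each other. At the 8 bound genes the gap ran from 1 bp at Dref to 31 bp at Cp190, and over 4075 promoter peaks found in both replicates the median was 10 bp and the upper quartile 22.0 bp. Signals were higher in replicate 1 at all 10 genes, and over those promoter peaks the median ratio of replicate 1 to replicate 2 was 1.65. The ratio was highest at Dref and Trl, 2.29 at each, and lowest at M1BP, 1.06. Since the read depth of the replicates is not known here, ranks rather than signals were compared between them.

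Genes of related roles were set beside the 10 as 5 lists. Like the 10 genes, the lists were chosen with earlier results of these data known, so their contrast with all genes is a description only. Of 58 listed genes found in the annotation, 38 (65.5%) were bound, against 33.0% of all genes, and their median signal of 1086 was above the median of 335 over the 8 bound genes described here. In the list of other DNA-binding proteins of boundaries, which also held lolal and l(3)mbt (both bound) and Hcf (not bound), 9 of 20 genes (45.0%) were bound. The strongest there were Adf1, a Myb-related transcription factor (signal 4742.9), and woc, a zinc finger protein (4589.1). The Adf1 summit lay 244 bp upstream of a start, just inside the limit of 250 bp. Elba1 and Elba2, subunits of an early boundary complex, were not bound.

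In the list of cohesin and condensin genes, which also held Top2 (bound, 714.9), 11 of 14 genes were bound (78.6%). Cap-G (3008.3) and SMC1 (2075.9) were the strongest, and Cap-D3 and SMC3 were not bound. The NSL complex, a histone acetyltransferase complex of housekeeping promoters, had 6 of 7 bound (85.7%), led by dgt1 (3620.4) and wds (2128.4), and mof, its acetyltransferase, was not. The weakest signal of the optimal set was 88.4, and nsl1 (101.7) and Rcd1 (101.4) lay just above it. A relaxed summit at mof (78.7, rank 5371) lay just below it. With the strongest peaks of either replicate alone, 5 of these genes were bound. For the nucleosome remodeller NURF, TRF2 and other partners of DREF and Chromator, 3 of 7 were bound (42.9%). Caf1-55 (3859.7) and Trf2 (3000.0) were the strongest of them, whereas Iswi, the NURF ATPase, and JIL-1, a kinase that binds Chromator, were not bound. In the list of Myb-MuvB complex genes, which also held E2F and Rbf genes, 9 of 10 were bound (90.0%). The strongest were mip120 (5177.6) and E2f1 (4892.6), and E2f2 was not bound.

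**Figure D5:**
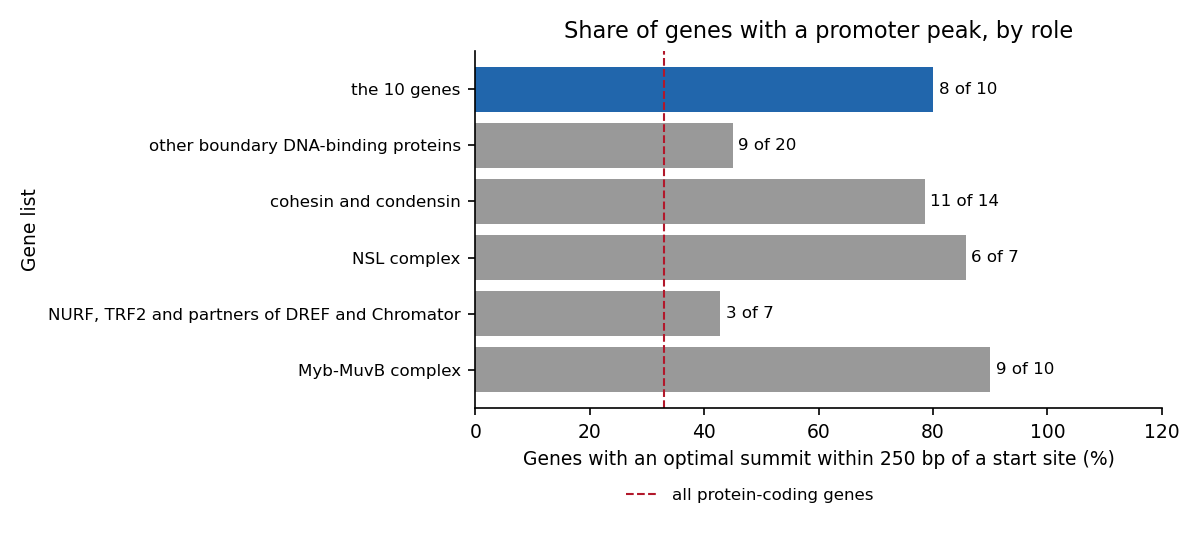
Share of genes with a summit of the optimal set within 250 bp of a start, in percent, for the 10 genes (blue) and for 5 lists of related roles (grey), with the counts beside each bar. The dashed line is the share of all protein-coding genes, 33.0%, and bars range from 42.9% to 90.0%. The genes and lists were chosen with earlier results of these data known.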

How the data were processed

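Peak lists in narrowPeak format on dm6 were used for replicate 1, replicate 2, both replicates pooled, and the optimal set that passed the authors' IDR filter. The deposited signal of each peak (column 7) is the authors' peak signal, on a scale that is not stated. The deposited −log10 q-value (column 9) is also the authors' and was not used to rank peaks. The inventory deposited with each sample names 1 control entry for both replicates. The sources used here give no aligner, peak caller, IDR setting or read depth. Hence no interval covers counting error. Lists on dm3 were not used here.

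Summits were the start of a line plus its summit offset, ranks were by signal within a list, and starts came from Ensembl release 115 on the same assembly. No line ended past its reference chromosome, and the optimal set equalled the 5007 strongest pooled lines. Bound genes had a summit within 250 bp of any start. Background genes were protein-coding and on chromosomes with a peak. The background for promoter motifs took the 5′-most start of each gene. Summits of different lists were linked within 100 bp. Scripts ran in Python 3.11.15 with numpy 2.4.6 and pandas 2.3.3, and the summit and motif searches were tested on simulated data.

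The 10 genes, the lists and the motifs were chosen with earlier results of these data known. All 10 genes were named whatever their values, with genes that start within 500 bp, and of each list the 2 bound genes of highest signal and the first 2 unbound genes in alphabetical order. Other optimal peaks were searched for within 2000 bp of each gene. With 1 group there was no comparison between conditions and no test. Alternatives changed the distance, the peak set, the starts counted, the motif window and the replicates. Symbols opbp and SA did not match the annotation and were left out.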

Additional observations from a re-analysis of the deposited data

How the results depend on the processing

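The count of bound genes among the 10 was 8 at distances of 100 and 500 bp and where the peak interval had to cover a start, 9 at 1000 bp (with Trl), 7 with the 5′-most start alone (without BEAF-32), and 4 among the 2503 strongest peaks. Taking the 5007 strongest peaks of either replicate alone gave 8. The median rank of the bound genes was 2584.5, and 2594 to 2656.5 when a replicate was left out. All 10 had a relaxed pooled summit at 250 and 500 bp and 9 at 100 bp (without Trl). Of the 58 genes of related roles, 38 were bound (33.0% of all genes), 30 at 100 bp (26.6%) and 42 at 500 bp (36.9%). Among the 2503 strongest peaks 25 were bound (20.2%). Without replicate 1 the count was 36 (32.2%), and without replicate 2 it was 38 (32.7%). The list of other DNA-binding proteins of boundaries fell from 9 bound genes at 250 bp to 6 at 100 bp. Bound genes with a Motif 1 core, DRE, Motif 6 or Motif 7 near the summit numbered 2 within 25 or 50 bp and 5 within 100 bp, since a wider window holds more sequence. Calls for M1BP and Trl depend on the authors' threshold, which Trl missed by 1.06-fold, and depth is unknown. No paired analysis was possible because there is a single group.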

Other observations

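In the pooled list, 4 of these genes had a second summit near the same start at almost the same distance from the main one. It lay 199 bp away at Dref, 202 bp at Cp190 and 204 bp at both pzg and mod(mdg4), with 3.09 to 7.66 times less signal than the main summit. At CTCF, replicate 2 alone listed such a summit, 203 bp from the main one. The second summit of the su(Hw) interval, at the Polr2I start, lay farther off, and a weak second summit at Trl in replicate 1 lay 252 bp from the main one. No 2 neighbouring summits of any list were closer than 199 bp, and 63.0% of the 938 neighbouring pairs of the optimal set within 1000 bp of each other lay at most 220 bp apart. In the pooled list it was 32.4% of 11055 pairs. Whether these second summits mark separate sites was not tested.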
